A study of Mus musculus with 2 samples.

Results

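MHC-II-high cells of the inflamed ear skin were chosen by their transcript levels in a single-cell RNA-seq library. They carried monocyte-macrophage transcripts (Csf1r, Cd68, Ms4a6c and Ms4a7 together at 300 CPM or more) and MHC class II transcripts (H2-Aa, H2-Ab1, H2-Eb1 and Cd74 together at 5000 CPM or more), where CPM is reads per 1000000 reads of the cell. They were kept apart from neighbouring classes by upper limits on C1qa, C1qb and C1qc together (1000 CPM), Flt3, Ccr7 and Il4i1 together (100 CPM), Ly6c2 (300 CPM), Pdcd1lg2 (50 CPM), Gpnmb (50 CPM) and Col1a1 (3000 CPM). Of 8953 cell barcodes in the library, 8359 had no more than 20% mitochondrial reads and at least 200 genes, and 216 of these (2.58%) met all limits. The hashtag antibody reads, which the limits did not use, placed 94 and 70 of the 216 cells in the WT pools of days 3 and 5 and 19 and 25 in the Ccr2-/- pools of days 3 and 5, and pools are listed in this order throughout. The remaining 8 cells had no clear hashtag.

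The mice were BALB/c, either wild type (WT) or homozygous for the deletion allele Ccr2tm1Mae (Ccr2-/-), which removes the receptor that monocytes use to leave the bone marrow. All of them had IgE-dependent chronic allergic inflammation (IgE-CAI): anti-TNP IgE was given first and the ear skin was then challenged with TNP-OVA. Ears were taken on day 3 or day 5 after challenge and digested with Liberase, cells were enriched on Percoll, and the 4 groups were tagged with hashtag antibodies and mixed for 1 microwell cDNA library and 1 hashtag library. Each genotype and day was 1 pool, and how many mice it held is not given in the sources used here.

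MHC class II molecules are dimers that carry peptides from taken-up proteins to the cell surface and show them to CD4+ T cells. Their genes, the invariant chain gene Cd74 and the peptide-loading genes H2-DM and H2-O are switched on together by the coactivator CIITA, which binds factors sitting on shared promoter boxes (S, X and Y). In skin, these genes are expressed by conventional dendritic cells, by Langerhans cells and by monocytes that have entered inflamed tissue and there take on dendritic cell features.

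The shared box can be read in the promoters of MHC class II genes, of which H2-Aa and H2-Eb1 are among the genes that define the cells and H2-DMb1 is not. Stretches of 120 bases that end at the transcription start were taken from RefSeq (GRCm38.p6) for 3 genes of the pathway: H2-Aa, the alpha chain of I-A (chr17:34287824-34287943, minus strand), H2-Eb1, the beta chain of I-E (chr17:34305747-34305866, plus strand), and H2-DMb1, a chain of the peptide exchange factor (chr17:34153071-34153190, plus strand). Capitals mark GATTGG, the inverted CCAAT of the Y box, or CCAATC, the same letters on the other strand.
H2-Aa: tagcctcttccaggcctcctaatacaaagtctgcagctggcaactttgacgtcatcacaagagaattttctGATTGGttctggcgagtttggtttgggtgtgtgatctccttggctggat
H2-Eb1: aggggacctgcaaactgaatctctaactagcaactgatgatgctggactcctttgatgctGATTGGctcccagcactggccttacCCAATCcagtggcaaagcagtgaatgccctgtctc
H2-DMb1: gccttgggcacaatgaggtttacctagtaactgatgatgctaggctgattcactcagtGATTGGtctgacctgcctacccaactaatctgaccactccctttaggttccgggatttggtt
The first match began 49 bases before the start in H2-Aa, 60 in H2-Eb1 and 62 in H2-DMb1. Of 11 MHC class II genes looked up, 8 had a promoter in the table, and all 8 held GATTGG on either strand within its 300 bases, against 16.1% of 32851 mouse promoters. H2-DMa had 2 entries, of which 1 held the letters. H2-Ab1, H2-Ea and Ciita had no entry. A match of letters was read as a description and not as a site in use.

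The library held 548117598 reads, and the MHC-II-high cells held 11369150 of them. Median reads per cell were 47373 and 34954.5 in WT on days 3 and 5 and 62420 and 43072 in Ccr2-/-, and the median mitochondrial share lay between 3.17% and 3.6%. Reads were unevenly spread in the small pools: cells over 100000 reads gave 30.6% and 16.6% of the reads of the WT pools on days 3 and 5 and 50.1% and 38.9% of those of the Ccr2-/- pools. Intervals on CPM cover the counting error of reads only. Reads and not molecules were counted, so the intervals leave out copies of the same molecule and the spread between cells, and are too narrow for either. Of the 8953 barcodes, 8696 were also in the hashtag library, as both libraries came from the same cells.

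The limits fixed what these cells are, so values of the limiting genes are a description. The summed MHC class II transcripts of the members had a median of 28092 CPM, with the nearest member at 5114 and the nearest excluded cell at 4991 CPM. Of cells that failed 1 limit alone, 556 lacked MHC class II, 139 were over the C1q limit, 72 over that of Flt3, Ccr7 and Il4i1, 64 under the monocyte-macrophage limit, 58 over that of Pdcd1lg2 and 38 over that of Ly6c2. C1q transcripts were at 0 in 150 of the 216 members, Flt3, Ccr7 and Il4i1 in 188 and Ly6c2 in 171. The MHC class II limit was therefore the one that most often decided membership.

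5 genes were used to check the label of monocyte-derived dendritic-like cells, and not all of them marked these cells out. H2-Ab1, the beta chain of I-A and itself part of the limits, stood at 6738 and 7889 CPM in the WT pools and at 6935 and 9659 in the Ccr2-/- pools. Ciita stood at 156, 143, 158 and 261 CPM in the order of pools above. In each pool this was higher than in Ly6c2-high monocytes (42.1, 0, 24.0 and 0) and C1q-high macrophages (43.9, 27.3, 0 and 10.8), and lower than in dendritic cells with Flt3, Ccr7 or Il4i1 (399, 266, 288 and 341). The monocytes and macrophages, unlike the MHC-II-high cells, had no limit on MHC class II.

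Clec12a, a C-type lectin of myeloid cells, did not mark the cells: it was at 71.8 and 91.2 CPM in the WT pools, and at 8.14 and 7.09 in the Ccr2-/- pools, below the Ly6c2-high monocytes of every pool (137, 298, 24.0 and 68.0). Tmem176a, an ion channel gene of myeloid cells, was at 119, 104, 37.7 and 91.5 CPM, below the dendritic cells of every pool (300, 158, 265 and 134). The name was therefore not carried further, and the cells are called MHC-II-high cells. In the WT pools they had both Ciita and Ccr2, as values of the pool and not of single cells. The dendritic cells of the WT pools also had both. Of those, 24 of 46 and 10 of 39 had no Ccr2 read, against 11 of 94 and 8 of 70 MHC-II-high cells.

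Ccr2, the targeted gene, gave 1419 and 1694 CPM in the WT pools against 150 and 393 in the Ccr2-/- pools. Both Ccr2-/- pools were below both WT pools, with a log2 difference of -2.62 (SE 0.36) that missed the threshold in edgeR's quasi-likelihood test across all genes (adjusted p = 0.34). After thinning every cell to 10000 reads, a Ccr2 read was found in 87.4% (95% interval 78.5 to 93.5) and 87.1% (76.1 to 94.3) of the WT cells on days 3 and 5, and in 27.8% (9.69 to 53.5) and 41.7% (22.1 to 63.4) of the Ccr2-/- cells. Among the 19 Ccr2-/- day 3 cells 13 had no Ccr2 read and none was over 1000 CPM, whereas 2 of the 25 Ccr2-/- day 5 cells were over 1000 CPM. Fibroblast-type barcodes of the same pools (Col1a1 at 3000 CPM or more and the monocyte-macrophage sum under 300 CPM), which should lack the gene, had 4.48, 5.33, 1.95 and 3.01 CPM.

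The question asked of the pools was how many MHC-II-high cells were found without CCR2. In the WT pools they made up 5.83% (95% exact binomial interval 4.73 to 7.08) of 1613 barcodes on day 3 and 6.42% (5.04 to 8.04) of 1091 on day 5. In the Ccr2-/- pools they made up 0.836% (0.504 to 1.30) of 2274 on day 3 and 0.991% (0.643 to 1.46) of 2522 on day 5. Both Ccr2-/- pools lay below both WT pools, 6.97 times lower on day 3 and 6.47 times lower on day 5. The mean difference was 5.21 percentage points, and p was 0.33 over the 6 ways to split the pools (exact permutation, two-sided), which is as low as 2 pools against 2 can reach.

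The ratio between genotypes was smaller when only cells of the same lineage were counted. Among barcodes with monocyte-macrophage transcripts, MHC-II-high cells were 15.6% (12.8 to 18.7) and 13.2% (10.5 to 16.4) in WT and 6.46% (3.94 to 9.91) and 6.78% (4.43 to 9.84) in Ccr2-/- on days 3 and 5. Both Ccr2-/- pools again lay below both WT pools. Among barcodes with a read of the leukocyte gene Ptprc the shares were 8.14%, 7.78%, 1.34% and 1.39%. Within each genotype the intervals of both days overlapped.

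**Figure D1:**
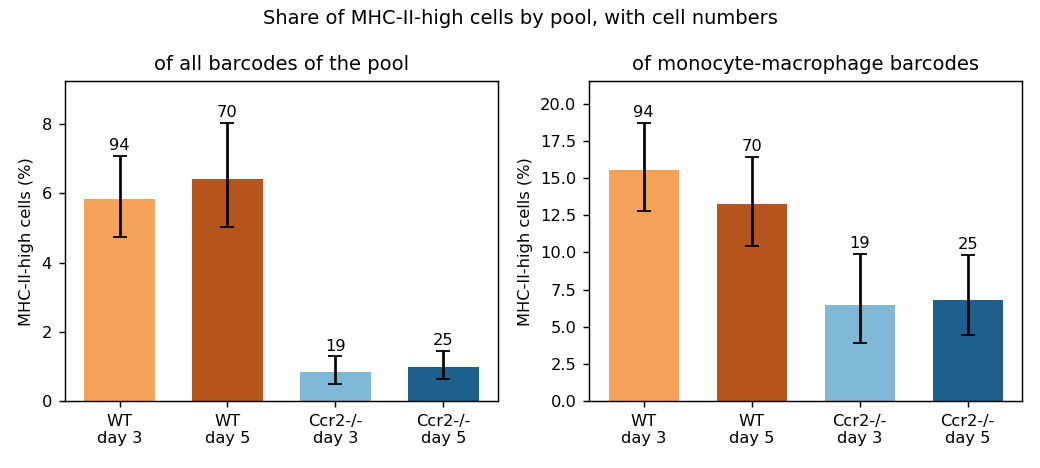
MHC-II-high cells as a percentage of all barcodes of a pool (left) and of its monocyte-macrophage barcodes (right), by genotype and day. Bars are shares of 1 pool, error bars are exact 95% binomial intervals and the number above each bar is the count of MHC-II-high cells. On the left the WT bars stand at 5.83% and 6.42% and the Ccr2-/- bars at 0.836% and 0.991%.

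MHC-II-high cells were set beside 3 neighbouring classes, to see which other transcripts went with their place between them. Those classes were Ly6c2-high monocytes (108, 10, 18 and 17 cells in the 4 pools), C1q-high macrophages (84, 201, 40 and 37) and dendritic cells with Flt3, Ccr7 or Il4i1 (46, 39, 24 and 39). Monocytes and macrophages had no limit on MHC class II. The dendritic cells had no lower limit on the monocyte-macrophage transcripts and no limit on Pdcd1lg2 or Gpnmb, unlike the MHC-II-high cells. Since the limits chose the cells by expression, no test was made. A gene was counted where it was at least 2-fold apart the same way in both WT pools, on log2(CPM + 10) of summed reads, and the limiting genes were left out.

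Against Ly6c2-high monocytes, 3 class II loading genes and 3 C-type lectins were higher and 8 genes of the monocyte list were lower. In all, 183 of 9577 genes were higher (1.91%) and 120 lower (1.25%), and of these 81 and 85 had the same sign in both Ccr2-/- pools. The monocytes of the Ccr2-/- pools (18 and 17 cells) also carried markers of other cells, with neutrophil markers at 2547 and 5605 CPM against 557 and 174 in WT monocytes, NK or ILC markers at 673 and 1443 against 11.4 and 0, and basophil or mast cell markers at 56.4 and 1061 against 67.1 and 20.1. Plasmacytoid dendritic cell markers summed to 433 and 4356 CPM in the WT monocytes and to 4071 and 2644 in those of Ccr2-/-. In the MHC-II-high cells they summed to 227, 196, 184 and 197 CPM. Klk1, a plasmacytoid marker, was among the 10 genes with the lowest ratio to monocytes (log2 -2.96 and -6.81 in WT). The part of these other cells in the ratios was not tested. Of 16 antigen processing and class II loading genes measured, 3 were higher and none lower. H2-DMb1 was at 989 and 855 CPM in the MHC-II-high cells of WT and at 197 and 16.7 in the monocytes, and the Ccr2-/- pools had 917 and 1367 against 64.9 and 42.1. H2-DMb2, its paralogue, was at 128, 135, 197 and 327 CPM against 32.1, 40.2, 16.9 and 25.9. The third of these genes was Ciita. Only the MHC-II-high cells had to reach the class II limit, and its part in the ratios of these genes was not tested.

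Mgl2, the CD301b lectin of dermal dendritic cells and alternatively activated macrophages, led the genes that were higher than in monocytes, with 552 and 486 CPM in WT against 3.67 and 16.7 and with 811 and 1298 in Ccr2-/- against 56.4 and 6.47. Cd209e, a DC-SIGN-related lectin, was at 184 and 212 CPM in WT against 1.73 and 0, but in Ccr2-/- day 3 it was lower than in the monocytes (624 against 1064). Itgax, the CD11c integrin chain, was at 67.4 and 44.6 CPM in WT against 5.18 and 6.70. Of these lectins, reads of Mgl2 and of the close relative Clec10a, and of the Cd209 genes among each other, could be split between near-identical copies.

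Of the genes below the monocytes, Plac8, a gene of myeloid cells, was at 221, 150, 102 and 37.8 CPM against 2274, 1842, 1638 and 2547, below the monocytes in every pool. Of 25 genes of the monocyte list 8 were lower and none higher, among them Plac8, Thbs1, Cx3cr1, Ace, Itgal, Ifitm3 and Ifitm6. Ccr2 itself was not among them: its log2 ratio was -0.46 and 0.12 in the WT pools. The division genes Top2a, Ccna2 and Stmn1 were higher, 3 of 13 of their list. WT day 5 gave 10 monocytes, and the WT day 3 pool alone gave 475 genes higher and 398 lower, an alternative added after the values were seen.

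Against C1q-high macrophages, 6 dendritic cell lineage genes were higher and 5 macrophage genes lower. Of 9495 genes 122 were higher (1.28%) and 99 lower (1.04%), and of these 110 and 91 had the same sign in both Ccr2-/- pools. Of 21 dendritic cell lineage genes 6 were higher, Itgax, Cd209a, Mgl2, Batf3, Cd24a and Plbd1, and 1 was lower, Clec10a. Plbd1, a phospholipase-like protein of dendritic cells and monocytes, was at 307 and 445 CPM in WT against 42.6 and 36.9, and at 289 and 432 in Ccr2-/- against 0.921 and 4.69. Septin3, a cytoskeletal gene, was at 91.8 and 125 CPM in WT against 2.1 and 2.54 and at 340 and 357 in Ccr2-/- against 0.307 and 11.2.

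Lsp1, a leukocyte actin-binding protein, was at 610 and 476 CPM in WT against 62.6 and 34.5 in the macrophages. Napsa, an aspartic protease of antigen-presenting cells, was at 138 and 154 CPM against 25.8 and 20.2, and in the monocytes it was higher than in the MHC-II-high cells (288 and 365). Il1b, the inflammasome cytokine, was at 941, 1449, 930 and 1429 CPM against 201, 419, 91.8 and 162. Lsp1 and Il1b separated the MHC-II-high cells from the macrophages in each pool.

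Of 23 macrophage genes 5 were lower than in C1q-high macrophages (Maf, Selenop, Folr2, Cbr2 and Ctsl) and 1 was higher (Cd9). Folr2, the folate receptor of resident macrophages, was at 67.6 and 62.4 CPM in WT against 482 and 526. Selenop, the selenium carrier, was at 2068 and 4820 CPM in WT against 6912 and 13948, and at 471 and 278 in Ccr2-/- against 4015 and 7163. Cd209b and Ccl8 were also lower, Ccl8 at 1583 and 4733 CPM in WT against 8440 and 18527. C4b, a complement gene, had the lowest ratio, with log2 values of -3.25 and -3.45 in the WT pools and -3.98 and -4.20 in the Ccr2-/- pools.

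Against dendritic cells with Flt3, Ccr7 or Il4i1, the MHC-II-high cells had macrophage genes, chemokines, Fc receptors and lectins at higher levels and genes of conventional dendritic cells at lower levels. Of 9600 genes 3.26% were higher and 206 lower (2.15%), and 181 of the higher and 139 of the lower ones had the same sign in both Ccr2-/- pools. Of 23 macrophage genes 14 were higher and 1 lower, with a median log2 ratio of 2.0 beside 0.03 over all genes. Only the MHC-II-high cells had to reach the limit on monocyte-macrophage transcripts, and its part in these ratios was not tested. The dendritic cells also carried NK or ILC markers at 509, 19.2, 1559 and 7.69 CPM, against 10.4, 14.2, 10.4 and 9.45 in the MHC-II-high cells. Their endothelial markers summed to 288, 54.1, 123 and 59.4 CPM and their fibroblast markers to 717, 657, 1668 and 576. The part of these other cell types in the ratios was not tested either. Mrc1, the mannose receptor, was at 2532, 1958, 3095 and 2189 CPM against 504, 597, 465 and 323.

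Of 17 chemokines 10 were higher than in those dendritic cells and 1, Cxcl10, was lower, with a median log2 ratio of 1.63. Ccl7, a ligand of CCR2, was at 1333 and 436 CPM in WT against 98.8 and 50.8, and at 3478 and 716 in Ccr2-/- against 238 and 20.1. Cxcl2, a ligand of the neutrophil receptor CXCR2, was at 1408, 1879, 1536 and 2041 CPM against 75.2, 431, 688 and 62.0. Fc receptor genes were higher in 4 of 6 (Fcgr1, Fcgr2b, Fcgr3 and Fcgr4) and C-type lectins in 8 of 16, among them Clec4b1 at 109, 120, 71.8 and 78.0 CPM against 19.4, 32.8, 9.24 and 17.5.

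Of 23 dendritic cell lineage genes 11 were lower and none higher, with a median log2 ratio of -1.07. Irf8, a transcription factor that conventional dendritic cells of type 1 need, was at 133, 204, 178 and 148 CPM against 1046, 1056, 550 and 1251. Cst3, the protease inhibitor cystatin C, was at 2202, 2501, 2015 and 2865 CPM against 5556, 6537, 5075 and 9672. Septin3 and Plbd1, both above the macrophages, were below the dendritic cells, Septin3 at 892, 797, 728 and 1223 CPM in the dendritic cells. Xcr1, the receptor that marks conventional dendritic cells of type 1, was at 11, 11.9, 6.66 and 5.32 CPM against 190, 90.6, 133 and 280. Of 18 antigen processing and class II loading genes 3 were higher (Ctsb, Ctsd and Lgmn) and 2 lower (Rfx5 and H2-Ob), with a median log2 ratio of -0.29. H2-DMa, which was not counted, was at 707, 676, 761 and 894 CPM against 688, 637, 641 and 722, a log2 ratio between 0.04 and 0.30.

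**Figure D2:**
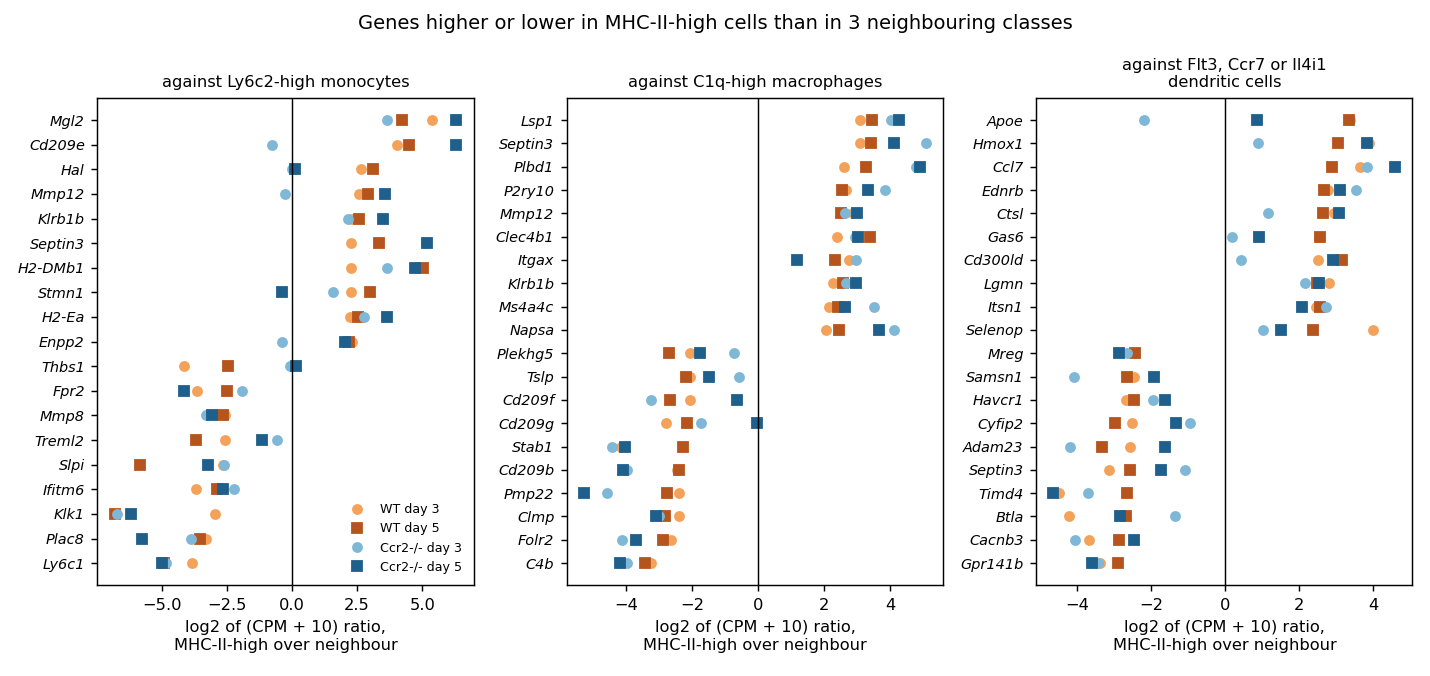
Log2 ratio of CPM + 10 in MHC-II-high cells over Ly6c2-high monocytes, C1q-high macrophages and dendritic cells with Flt3, Ccr7 or Il4i1, for genes among the 10 with the largest and the 10 with the smallest ratio in each comparison. Each point is 1 pool (orange WT, blue Ccr2-/-, circles day 3, squares day 5) and genes were ranked by the WT pool nearer to 0. Against the macrophages all blue points lie on the side of the orange ones, whereas Apoe against dendritic cells is at 3.36 and 3.35 in WT and at -2.20 and 0.87 in Ccr2-/-.

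Gene by gene, the few MHC-II-high cells of Ccr2-/- skin were then compared with those of WT skin, with reads summed over the cells of each pool and day as a covariate. 1 of 11056 genes passed edgeR's quasi-likelihood test at an adjusted p under 0.05 (0.00904%), Apoe, the lipid carrier that macrophages secrete. Apoe gave 1540 and 4792 CPM in the WT pools and 57.7 and 104 in the Ccr2-/- pools. The genotypes did not overlap, and Apoe fell by 5.10 on the log2 scale in Ccr2-/- (SE 0.30, adjusted p = 0.035). After thinning, 66.7% and 90.3% of the WT cells had an Apoe read on days 3 and 5, against 22.2% and 29.2% of the Ccr2-/- cells.

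Both Ccr2-/- pools also had less Apoe than both WT pools in C1q-high macrophages (5245 and 9262 CPM in WT against 1150 and 3504), in Ly6c2-high monocytes (1607 and 1919 against 831 and 372) and in fibroblast-type barcodes (953 and 1087 against 805 and 446). In dendritic cells with Flt3, Ccr7 or Il4i1 the genotypes overlapped, with Apoe at 141 and 462 CPM in WT and at 302 and 52.6 in Ccr2-/-. The part that RNA from other cells had in the Apoe result was not tested. In the Ccr2-/- pools 1 cell held 43.6% and 64.2% of the Apoe reads. With genotype as the only term the adjusted p of Apoe was 0.33, and it was between 1.07e-61 and 0.047 under the other alternatives.

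Without adjustment 821 genes had a p under 0.05 (7.43%), 334 of them higher (3.02%) and 487 lower (4.40%) in Ccr2-/-. For 17.6% of all genes both Ccr2-/- pools were above both WT pools and for 25.1% below, 42.7% together. The counts of each gene group below are read against these shares, and the median log2 fold change over all genes was -0.09. In data simulated at the same size, with the common spread used for all genes, 4 of 200 genes changed 4-fold passed the adjusted threshold. Of 200 genes changed 16-fold 131 passed, so that at this spread and number of pools and cells smaller differences were mostly not detectable. At either fold 2 unchanged genes also passed, beside the 1 gene that passed in the data. At a lower spread (dispersion 0.05 in place of 0.293), 168 of 200 genes changed 4-fold and 196 of 200 changed 16-fold passed. With that spread 2 and 13 unchanged genes also passed.

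The antigen presentation genes did not share a direction between genotypes. Cells of both genotypes had to reach the same class II limit, and its part in these values was not tested. Of 17 antigen processing and class II loading genes, 1 was higher and 4 lower at an unadjusted p under 0.05, and the median log2 fold change was 0.24. Ciita differed by 0.49 and H2-DMb1 by 0.33 on the log2 scale, and neither passed (adjusted p = 0.77 and 0.82). H2-DMb2 was at 128 and 135 CPM in WT and at 197 and 327 in Ccr2-/-, without overlap (log2 0.99, adjusted p = 0.65). Cathepsin B (Ctsb), a lysosomal protease, was at 1732 and 2514 CPM in WT and at 792 and 716 in Ccr2-/- (log2 -1.43), and Ifi30, the lysosomal thiol reductase, was at 1134, 1150, 1055 and 1197 CPM. Co-stimulatory and checkpoint genes had 0 of 10 at that p in either direction, with Cd86 at 60.8, 84.9, 81.4 and 99.2 CPM.

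C-type lectins and dendritic cell genes included several whose Ccr2-/- values were higher in both pools. Cd209e was at 184 and 212 CPM in WT and at 624 and 783 in Ccr2-/- (log2 1.87, adjusted p = 0.34). Cd209a, the DC-SIGN gene that marks monocyte-related dendritic cells, was at 361 and 245 CPM in WT and at 656 and 620 in Ccr2-/- (log2 1.14). Mgl2 was at 552 and 486 against 811 and 1298 CPM (log2 1.03), and Clec4n, the Dectin-2 gene, at 77.9 and 92.8 against 250 and 484 CPM (log2 2.08). In contrast Clec10a was at 139 and 113 CPM in WT and at 54.8 and 31.9 in Ccr2-/- (log2 -1.53), and the log2 difference of Clec12a was -3.36. Of the 16 lectins 5 were higher and 3 lower at an unadjusted p under 0.05.

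Of 23 dendritic cell lineage genes 3 were higher and 2 lower at that p. Cd24a, the heat-stable antigen, was at 86.1 and 31.1 CPM in WT and at 258 and 304 in Ccr2-/- (log2 2.46). Septin3 was at 91.8 and 125 against 340 and 357 CPM (log2 1.74, adjusted p = 0.38). Klf4, a transcription factor of monocytes, was at 1278 and 1682 against 696 and 669 CPM (log2 -1.06). The shares of Mgl2-positive cells after thinning were 41.4%, 37.1%, 44.4% and 41.7%, whose intervals overlapped, while the level per pool differed. The largest cell held 30.4% and 40.7% of the Mgl2 reads of the Ccr2-/- pools.

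Among macrophage genes, lower values in Ccr2-/- were more frequent than higher ones. Of 23 macrophage genes none was higher and 8 lower at an unadjusted p under 0.05, none had both Ccr2-/- pools above WT and 10 had both below (median log2 -0.52). Selenop was at 2068 and 4820 CPM in WT and at 471 and 278 in Ccr2-/- (log2 -3.08, adjusted p = 0.38), with 95% of its reads in Ccr2-/- day 3 from 1 cell. Cbr2, a carbonyl reductase, was at 215 and 354 against 25.2 and 9.45 CPM (log2 -4.05), and Gas6, the ligand of the efferocytosis receptors of the TAM family, at 81.0 and 184 against 7.40 and 21.9 CPM (log2 -3.19).

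Of 25 monocyte genes 1 was higher and 5 lower at that p, 3 had both Ccr2-/- pools above WT and 8 both below, and the median log2 fold change was -0.22. F13a1, coagulation factor XIII made by monocytes, was at 346 and 211 CPM in WT and at 17.8 and 2.36 in Ccr2-/- (log2 -5.05, adjusted p = 0.34), where 1 of 19 and 2 of 25 cells had a read. Cybb, the catalytic subunit of the phagocyte oxidase, was at 784 and 707 against 229 and 147 CPM (log2 -1.97). Ly86, the MD-1 partner of the receptor RP105, was at 192 and 209 against 37.7 and 36.6 CPM (log2 -2.39). Both Ccr2-/- pools were below both WT pools for each of these genes, and none of them passed the adjusted threshold.

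**Figure D3:**
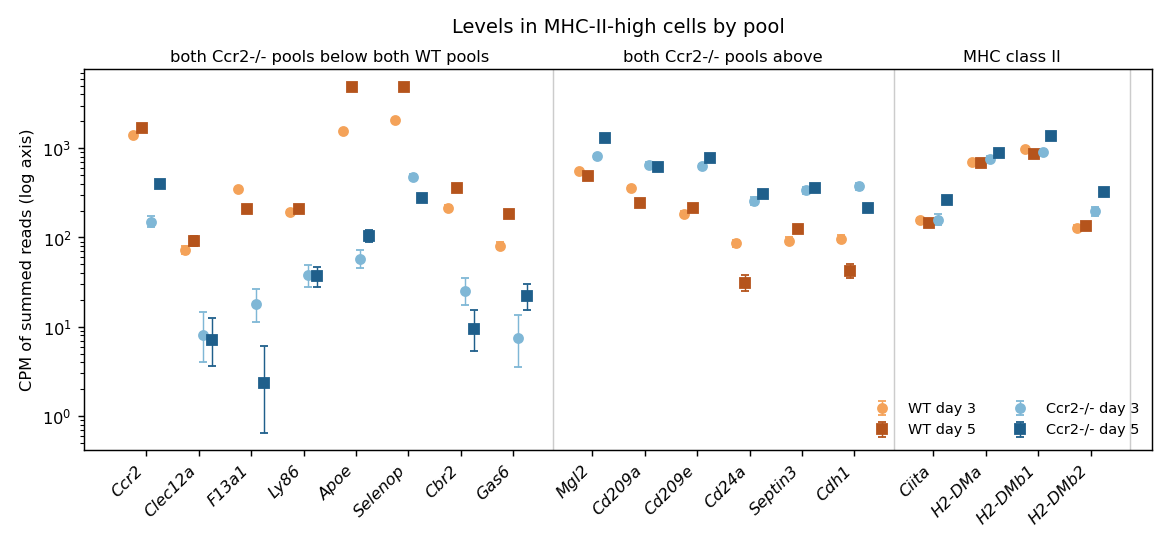
Reads per 1000000 (CPM, log axis) of named genes in MHC-II-high cells of each pool, summed over 94, 70, 19 and 25 cells, with exact 95% Poisson intervals that cover the counting error of reads only. Orange points are WT and blue points Ccr2-/-, circles day 3 and squares day 5. Apoe stands at 1540 and 4792 CPM in WT and 57.7 and 104 in Ccr2-/-. The MHC class II genes, with H2-DMb2 higher in both Ccr2-/- pools, come from cells that all had to reach the same class II limit.

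Type I interferon-stimulated genes had lower values in Ccr2-/-. Of 19 measured, 9 were lower and none higher at an unadjusted p under 0.05, and 15 had both Ccr2-/- pools below both WT pools, with a median log2 fold change of -2.68, which was the same with genes unread in both Ccr2-/- pools set to the bound that 3 reads over both pools allow. Ifi44 was at 199 and 45.3 CPM in WT and at 22.9 and 7.68 in Ccr2-/- (log2 -2.82, adjusted p = 0.38). Ifi204, a DNA sensor, was at 239 and 127 against 30.3 and 52.6 CPM (log2 -2.06), and Isg15 at 50.3 and 45.6 against 3.70 and 15.4 CPM. None passed the adjusted threshold. Of 15 interferon-gamma response genes 2 were lower and none higher.

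Immediate early genes, which tissue digestion also induces, were lower in Ccr2-/- in 11 of 16 cases at an unadjusted p under 0.05 and higher in none. Junb was at 1712 and 1975 CPM in WT and at 731 and 820 in Ccr2-/- (log2 -1.20), and Fos at 2780 and 3640 against 2108 and 1255 CPM (log2 -0.92). Fibroblast-type barcodes of the same pools had Junb at 1475 and 1639 CPM in WT and at 1018 and 888 in Ccr2-/-, and Fos at 6121 and 6416 against 4776 and 4147. The order of the genotypes was the same in those cells, and the part that dissociation had in it was not tested.

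Of 15 division genes 3 were lower and none higher at an unadjusted p under 0.05, and 8 had both Ccr2-/- pools below WT and 2 both above. Mki67, a marker of cycling cells, was at 116 and 138 CPM in WT and at 21.5 and 23.6 in Ccr2-/- (log2 -2.45, adjusted p = 0.38), with a read in 26, 21, 4 and 5 cells, and 1 cell held 75.9% and 65.0% of the reads of the Ccr2-/- pools. Of 15 cytokines 2 were higher and 2 lower at that p. Il10, the anti-inflammatory cytokine, was at 85.5 and 97.1 CPM in WT and at 21.5 and 29.5 in Ccr2-/-, and Igf1, a growth factor, at 139 and 265 against 51.8 and 15.4 CPM. The growth factors Hbegf, at 88.3 and 70.0 against 488 and 123 CPM, and Csf1, at 9.83 and 26.4 against 32.6 and 149 CPM, stood the other way. Cxcr4, the receptor for CXCL12, was at 128 and 252 against 16.3 and 62.6 CPM (log2 -2.41).

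Chemokines did not follow 1 direction. Ccl2, the main ligand of CCR2, was at 860 and 373 CPM in WT and at 2626 and 712 in Ccr2-/- (log2 1.32, adjusted p = 0.48), and the genotypes overlapped. Ccl7 was at 1333 and 436 against 3478 and 716 CPM (log2 1.10), which turned to -0.21 without the Ccr2-/- day 3 pool. Fibroblast-type barcodes had Ccl2 at 1781 and 1499 CPM in WT and at 4016 and 2616 in Ccr2-/-, higher in both Ccr2-/- pools there too. Il1b was at 941, 1449, 930 and 1429 CPM and Cxcl2 at 1408, 1879, 1536 and 2041 CPM, with overlapping genotypes. Ccl2, Ccl7 and Ccl12 are close relatives, whose reads could be split between copies.

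Genes of the response to interleukin-4, the cytokine of this model's basophils, were 3 higher and none lower of 15 at an unadjusted p under 0.05 (median log2 0.05). Retnla was at 3016, 1351, 1827 and 4.72 CPM and Ccl24, a chemokine for eosinophils, stood at 333, 349, 661 and 30.1 CPM, each with the lowest level in Ccr2-/- day 5 and an overlap of the genotypes. Il4ra, the receptor chain, was at 298, 155, 416 and 217 CPM. In Ccr2-/- day 3 a single cell held 84.3% of the Retnla reads.

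Genes of other cell types with higher values in Ccr2-/- were led by S100a8, a neutrophil calcium-binding protein, at 15.7 and 11.9 CPM in WT and 156 and 315 in Ccr2-/- (log2 4.04, adjusted p = 0.34). In the Ccr2-/- pools 1 cell held 96.7% and 96.6% of these reads, and the whole neutrophil list of 6 markers summed to 178, 178, 514 and 907 CPM, with Ly6g at 0 in every pool. The same list summed to 39.7, 45.3, 81.5 and 137 CPM in fibroblast-type barcodes. Cdh1, the E-cadherin that also holds Langerhans cells in the epidermis, was at 96.3 and 42.0 against 375 and 214 CPM (log2 2.19, adjusted p = 0.34). Langerhans markers summed to 132, 152, 998 and 318 CPM over 6 genes, with the defining gene Cd207 at 2.36, 43.3, 0 and 8.86 CPM. The part of these cell types in the genotype differences was not tested.

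B cell markers, with 166 and 111 CPM over 5 genes in WT and 42.9 and 11.8 in Ccr2-/-, were lower in both Ccr2-/- pools, and their part in the genotype differences was not tested. Fibroblast markers summed to 666, 758, 587 and 606 CPM over 6 genes and T cell markers to at most 10.0 CPM over 5. Markers of conventional dendritic cells of type 1 summed to 91.4, 142, 146 and 108 CPM over 5 genes, plasmacytoid markers to between 184 and 227 CPM over 5 and endothelial markers to between 29.5 and 86.6 CPM over 5. Each remaining list (eosinophil, basophil or mast cell, NK or ILC, keratinocyte and pericyte) summed to at most 69.6 CPM in any pool. No doublet caller was run on these cells. Barcodes with mixed hashtags were left without a pool.

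**Figure D4:**
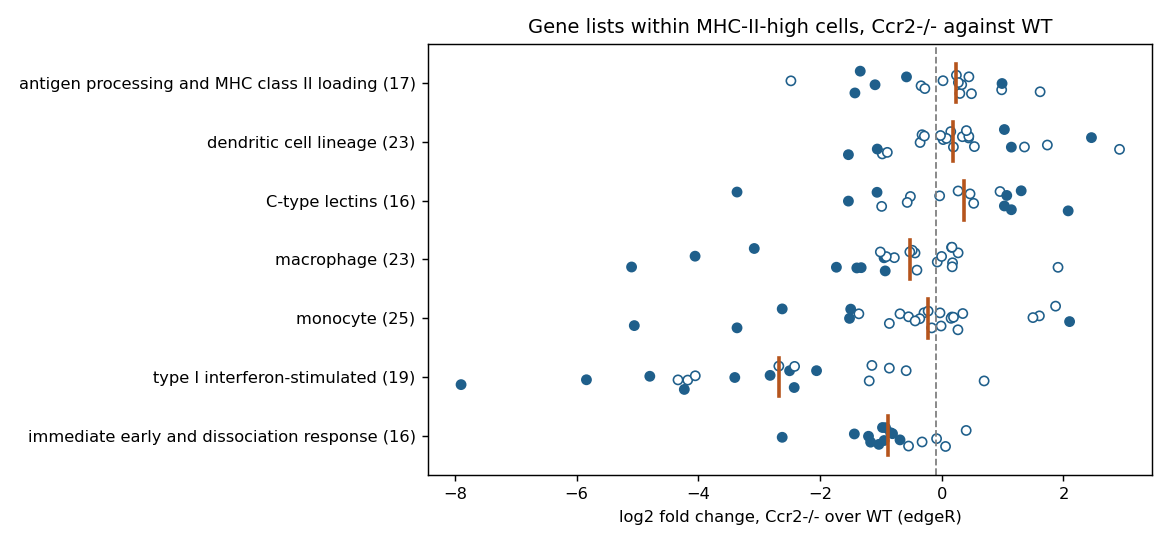
Log2 fold change (edgeR) of Ccr2-/- over WT in MHC-II-high cells for the members of 7 gene lists, with the number measured in brackets. Each circle is 1 gene, filled where its unadjusted p is under 0.05, orange bars are list medians and the dashed line is the median of all genes at -0.09. The median is 0.24 for class II loading, 0.37 for C-type lectins, -0.52 for macrophage genes and -2.68 for type I interferon-stimulated genes.

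Between day 3 and day 5 the WT MHC-II-high cells differed in some chemokines, macrophage genes and monocyte genes. With 1 pool per day there was no test, and a gene was counted at a 2-fold difference on log2(CPM + 10) whose direction was the same in the mean of cells, with a read in at least 25% of the cells of the higher day. By this rule 79 of 9553 genes (0.827%) were higher and 104 (1.09%) lower on day 5, 1.92% together. None of 16 antigen processing and class II loading genes, none of 16 C-type lectins and none of 10 co-stimulatory genes was counted. At a share of 1.92% lists of this size would mostly hold none, so these counts do not set the lists apart.

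Apoe was at 1540 CPM (1506 to 1575) on day 3 and 4792 (4714 to 4871) on day 5, a log2 difference of 1.63, and 66.7% and 90.3% of thinned cells had a read. Selenop and Pltp were the other macrophage genes that were higher, 3 of 23 with Apoe. Ccl8, a ligand of CCR8 in the mouse, was at 1583 (1548 to 1618) and 4733 (4655 to 4811) CPM, and Cxcl16, the CXCR6 ligand, at 73.9 (66.6 to 81.8) and 273 (255 to 292) CPM. Cxcl16 had a read in 21.8% of thinned cells on day 3 and 51.6% on day 5. Stab1, a scavenger receptor, was at 9.83 and 62.4 CPM and Tlr1 at 18.7 and 79.0 CPM.

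Of the genes that were lower on day 5, Lyz1, a lysozyme, was at 638 (616 to 661) and 103 (92.3 to 116) CPM and Chil3, the monocyte protein Ym1, at 702 (679 to 725) and 136 (123 to 150) CPM. Their shares of thinned cells differed less, 56.3% (45.3 to 66.9) and 46.8% (34.0 to 59.9) for Lyz1 and 33.3% (23.6 to 44.3) and 24.2% (14.2 to 36.7) for Chil3, with overlapping intervals. Lyz1, Chil3, Ifitm3 and Ms4a4c made 4 of 24 monocyte genes lower, with none higher. Of 16 chemokines Ccl2, Ccl7 and Ccl12 were lower and Ccl8 and Cxcl16 higher. Of 18 type I interferon-stimulated genes 2 were lower, Irf7 at 134 and 38.0 CPM and Ifi44 at 199 and 45.3 CPM (list median log2 -0.86, all genes -0.0032).

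Single cells decided some of these values. Ifitm1 had the largest ratio, 77.5 CPM on day 3 and 441 on day 5, but 93.9% of its day 5 reads came from 1 cell, and the log2 difference of 2.37 became -1.52 without cells over 100000 reads. In the Ccr2-/- cells 46 of the 79 genes that were higher on day 5 in WT and 58 of the 104 lower ones had the same sign, over 19 and 25 cells. Ccl8 went the other way there (1930 and 734 CPM), with 96.7% of the day 5 reads in 1 cell.

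**Figure D5:**
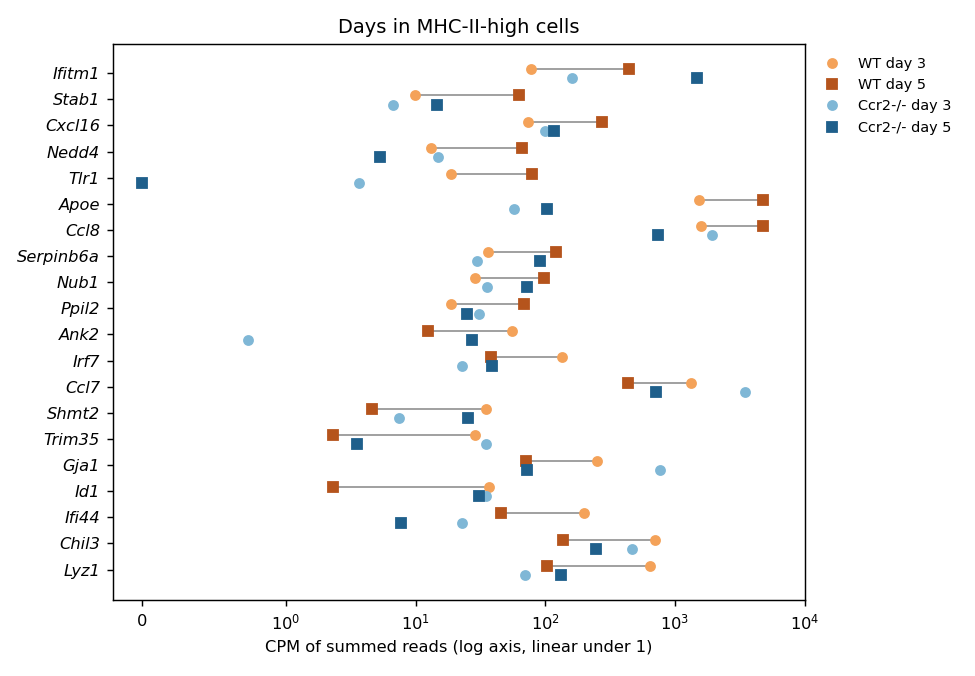
CPM (log axis, linear under 1) of the 10 genes with the largest and the 10 with the smallest ratio of day 5 to day 3 in WT MHC-II-high cells. Orange points are WT, joined by a line between days, blue points Ccr2-/-, circles day 3 and squares day 5, each 1 pool. Apoe goes from 1540 to 4792 CPM in WT and lies at 57.7 and 104 in Ccr2-/-, and Lyz1 goes from 638 to 103 in WT.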

How the data were processed

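Skin cells of 4 hashtag-labelled groups were measured in 1 TAS-Seq cDNA library and 1 hashtag library. The deposited matrix holds counts, made by the authors from reads trimmed with cutadapt and aligned with Bowtie2 (GRCm38.p6 per the labels; versions not given in the labels), and the deposited hashtag file holds counts of reads per antibody. Of its columns 9 were other hashtags and were not used. Molecules were not counted, so intervals on CPM and floors cover the counting error of reads only and not that of molecules.

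The members and the gene lists were chosen with earlier results of these data known. Barcodes went to the hashtag with the highest count over the column total, if at least 3 times the next. Fibroblast-type barcodes had Col1a1 at 3000 CPM or more without monocyte-macrophage transcripts over the limit and were used for background. Detection shares were taken on cells thinned to 10000 reads, without the 17 assigned MHC-II-high cells (7, 8, 1 and 1 per pool) under that depth.

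Reads were summed per pool and tested with edgeR 4.0.16 (TMM, filterByExpr, day and genotype, quasi-likelihood test, Benjamini-Hochberg over all genes, 1 residual degree of freedom among 4 pools) in R 4.3.3; DESeq2 1.42.0 was an alternative. With 1 pool per genotype and day, no spread between replicate pools was measured. The residual of the test with day and genotype was how far the genotype difference changed between the days. That change could be technical or a true difference between days, and the p-values and SEs rest on it. SEs of log2 fold changes were taken from the fold change and its F statistic. Shares carry exact Clopper-Pearson and CPM exact Poisson 95% intervals (scipy 1.17.1). The edgeR step was tested on simulated data. Genes were named where they belong to the limits, a gene list or a marker list, or were among the 10 largest or smallest ratios or lowest adjusted p in a direction, without predicted, ribosomal, mitochondrial or haemoglobin genes. Alternatives covered hashtag, class II, C1q and mitochondrial limits, denominators, normalization, filter, design, large cells, added CPM and left-out pools. Some genes that met the naming rule are not reported here. Promoters come from RefSeq.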

Additional observations from a re-analysis of the deposited data

How the results depend on the processing

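The share of MHC-II-high cells was lower in both Ccr2-/- pools under every alternative tried, with a difference of 4.53 to 7.78 percentage points, and of 4.91 to 5.50 when a pool was left out. The count of genes that passed between genotypes was not stable: 1 became 92 without a filter on low counts, 115 with DESeq2, 0 with genotype as the only term, and 27 to 126 when 1 pool was left out and genotype was the only term, without the WT day 3 pool 32, the WT day 5 pool 27, the Ccr2-/- day 3 pool 34 and the Ccr2-/- day 5 pool 126. Left-out fits hold 1 pool of a genotype, which is assumed to vary like the others. It stayed 1 with library sizes, with a hashtag ratio of 10 and without cells over 100000 reads. The cause was not tested.

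On the day within WT, 79 genes higher became 186 with the mean of cells, 135 without cells over 100000 reads and 151 with 1 CPM added, and 104 lower became 186 with 1 CPM added. With 1 CPM added, the counts of genes higher and lower were 607 and 318 against monocytes, 285 and 333 against macrophages and 644 and 449 against dendritic cells. The WT day 3 pool alone gave 475 and 398 against monocytes, and a class II limit of 10000 CPM gave 154 lower against macrophages. An added value of 1 CPM lets genes with few reads pass the fold, and for the rest the cause was not tested. Counts of gated WT cells with a Ccr2 read, an alternative added after the values were seen, were 105 higher and 118 lower.

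Of named genes, Ccl7 between genotypes ranged from -0.21 to 2.27 when 1 pool was left out, the lower value without the Ccr2-/- day 3 pool, and Ifitm1 between days turned to -1.52 without cells over 100000 reads. Pools could not be paired by replicate number, because each genotype and day had 1 pool. The day term compared genotypes within days, and without it Apoe had an adjusted p of 0.33 in edgeR. Depth limits the Ccr2-/- values, which rest on 19 and 25 cells, 1 of which held 14.4% and 12.7% of all reads of its pool.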

Other observations

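The MHC-II-high cells were not uniform in which genes were read together. These pairs were chosen after the values were seen and have no test. Among 191 cells of the 4 pools thinned to 10000 reads, 31 had a Septin3 read, and Apoe was read in 7 of them (22.6%) against 118 of the 160 cells without Septin3 (73.8%). Napsa was read in 22 (71.0%) against 54 (33.8%). The direction for Apoe was the same in each pool, with 3 of 11 cells against 55 of 76 in WT day 3, 2 of 5 against 54 of 57 in WT day 5, 1 of 7 against 3 of 11 in Ccr2-/- day 3 and 1 of 8 against 6 of 16 in Ccr2-/- day 5.

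Of the same cells 77 had an Mgl2 read. Cd209a was read in 47 of them (61.0%) against 22 of 114 without Mgl2 (19.3%), and Cd209e in 31 (40.3%) against 17 (14.9%), both higher in the Mgl2 cells of every pool. Fcgr1, the high-affinity IgG receptor of macrophages, was read in 11 (14.3%) against 34 (29.8%), but in Ccr2-/- day 3 in 3 of 8 against 3 of 10. Ccr2, the targeted gene, was read in 60 (77.9%) and 85 (74.6%), which are totals over both genotypes. Its direction differed between pools. In WT it was read in 30 of 36 against 46 of 51 cells on day 3 and 21 of 23 against 33 of 39 on day 5. In Ccr2-/- it was read in 3 of 8 against 2 of 10 on day 3 and 6 of 10 against 4 of 14 on day 5.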
